A study of Mus musculus with 6 samples.

Results

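Mouse embryonic stem cells kept alive by coelacanth POU5F3 (LcPOU5F3) were compared with the same cells kept alive by mouse OCT4 (mOct4). The comparison rests on 4 of the 6 arrays of the series, chosen by their labels: LcPOU5F3-rescued clones 1 and 2 and mOct4-rescued clones 1 and 2. All 4 derive from ZHBTc4, a line of embryonic stem cells whose own Oct4 supply is a transgene that tetracycline silences. A pCAG-IP-POUV plasmid, whose CAG promoter is constitutive, brought in the replacement factor by electroporation. Per the labels, tetracycline was given at 2 µg/mL, puromycin at 1 µg/mL followed from day 2, colonies were picked at day 9, and cells grew on gelatin in serum with LIF. Each line is 1 picked clone with 1 array, so the clone is the replicate. The p-values measure only the spread between picked clones, which cannot be told apart from differences between arrays. That spread is pooled over 3 groups, including the 2 clones rescued by coelacanth POU5F1 on the other arrays of the series. The dose of the replacement protein in each clone was not measured on these arrays.

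OCT4 belongs to the POUV class of POU-domain transcription factors, which bind an octamer in DNA, often beside SOX2, and hold up the naive network of Nanog, Esrrb, Klf4 and their targets. In mouse embryonic stem cells, loss of OCT4 lets the cells leave pluripotency towards trophectoderm, the outer epithelium of the blastocyst marked by Cdx2, Gata3 and simple keratins. Jawed vertebrates inherited the paralogs POU5F1 and POU5F3, eutherian mammals kept only POU5F1, and the coelacanth kept both.

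Because the results turn on genes that rose or fell together, their promoters were searched for 3 motifs on both strands in RefSeq promoters (GRCm38.p6, 250 bases before to 50 after each start). The octamer, spelled ATGCAAAT, lay in 1.74% of all promoters and in 1.31% of those of tested genes. It lay in 1.63% of the promoters of genes called higher with LcPOU5F3 and in 2.06% of those called lower. It stood upstream of both Zfp42, which fell, and Cdx2, which rose, and of the immediate early genes Egr2 and Srf, which rose. The octamer is in capitals in these windows, written 5′ to 3′ on the gene's strand:

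Zfp42: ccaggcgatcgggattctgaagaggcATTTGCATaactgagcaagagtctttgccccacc

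Cdx2: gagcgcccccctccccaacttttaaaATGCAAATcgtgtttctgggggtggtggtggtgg

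Egr2: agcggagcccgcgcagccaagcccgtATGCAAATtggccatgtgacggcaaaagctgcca

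Srf: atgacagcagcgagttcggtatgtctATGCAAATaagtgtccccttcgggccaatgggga

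The Zfp42 window is chr8:43307162-43307221 on the minus strand, with the match 186 bases before the start, and the Cdx2 window is chr5:147307363-147307422 on the minus strand, 147 bases before it. The Egr2 window is chr10:67537716-67537775 on the plus strand and the Srf window chr17:46556294-46556353 on the minus strand, 127 and 165 bases before the start.

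GGAATG, the core bound by TEAD factors, the DNA-binding partners of YAP and TAZ, lay in 14.7% of all promoters. It lay in 12.7% of the promoters of tested genes, in 14.3% of those called higher and in 13.3% of those called lower. It lay in 52.2% of 23 promoters of the Hippo-YAP list (10 of its 18 genes with a promoter sequence) and in 29.6% of 27 promoters of the actin contractile list. The Hippo-YAP list was drawn up from known targets, so its share is not independent of the motif. The TEAD core is in capitals in the windows of genes that rose in these lists:

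Ccn1: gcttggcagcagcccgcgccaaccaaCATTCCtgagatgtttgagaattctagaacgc

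Ankrd1: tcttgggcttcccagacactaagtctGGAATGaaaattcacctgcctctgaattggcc

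Wwtr1: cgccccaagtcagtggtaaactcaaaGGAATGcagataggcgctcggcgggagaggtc

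Acta1: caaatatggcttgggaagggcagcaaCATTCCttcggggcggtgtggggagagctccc

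Acta2: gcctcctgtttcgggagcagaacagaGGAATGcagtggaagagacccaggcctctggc

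These windows are chr3:145650057-145650114 for Ccn1, chr19:36119936-36119993 for Ankrd1, chr3:57576015-57576072 for Wwtr1, chr8:123894790-123894847 for Acta1 and chr19:34255488-34255545 for Acta2, all on the minus strand. The AP-1 motif TGANTCA lay in 7.81% of all promoters and in 5.39% of those of tested genes. It lay in 6.76% of those called higher and 5.49% of those called lower. It stood 95 bases before the start of Anxa2, an annexin gene that rose, at chr9:69453562-69453620 on the plus strand, with the motif in capitals:

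Anxa2: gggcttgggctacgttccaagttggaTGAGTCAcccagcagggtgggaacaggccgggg

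A match describes these letters and shows no binding.

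Levels are log2 processed signals relative to each array's 75th percentile. A spot was measured where the scanner software called it well above background. That held for 57.5% and 57.8% of probes in mOct4 clones 1 and 2, and for 43.5% and 53.3% in LcPOU5F3 clones 1 and 2. LcPOU5F3 clone 1 had the highest floor of the 4, with its dimmest measured probe at -2.45 against -3.64 to -3.91 elsewhere, so dim genes can look higher there. Mouse Pou5f1 stood at -1.75 and -1.47 in the mOct4 clones and was not well above background in either LcPOU5F3 clone. It was at least 2.97-fold lower there (limma adjusted p = 0.0701), and whether the probe reads the rescue transgene was not tested.

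Lost pluripotency genes and gained epithelial and contractile genes separated the 2 constructs. At an adjusted p under 0.05 (limma, Benjamini-Hochberg), 3436 of 14595 genes were called (23.5%), 1724 higher (11.8%) and 1712 lower (11.7%) with LcPOU5F3, and 2307 of them differed by at least 2-fold. The median of all genes was -0.09, beside which each list median is to be read. Counts of calls in a list are likewise to be read beside the 11.8% and 11.7% of all genes. The groups did not overlap for 68.4% of all genes. The pooled spread joins pairs of unequal tightness. Among genes measured on all 4 arrays, 0.342% were at least 2-fold apart between the mOct4 clones and 9.78% between the LcPOU5F3 clones. With a variance weight for each group limma called 2887 genes. The number of calls depended on having both mOct4 clones, and the cause of this was not tested. Leaving out any 1 clone, of either construct, leaves its group with 1 array. Without mOct4 clone 1 there were 36 calls and without mOct4 clone 2, the only array on slide 2, there were 46. Of these, 31 genes were shared, all called with every array too. They included Krt8, Krt7, Msx2, Ankrd1, Btg2, Flt1, Prss23, Csf1, Fras1 and Sema3c among the rises, and Inhbb, Vegfc, Stmn3 and Gstt1 as the falls. Fitting only the 4 arrays called 2202 genes, and leaving out LcPOU5F3 clone 1 called 5070.

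The naive network fell with LcPOU5F3, in 18 of 24 listed genes, all of which passed the filter on dim probes, and its median difference was -2.07. Esrrb, an orphan nuclear receptor of naive cells, stood at 7.12 and 7.12 in the mOct4 clones and at 5.25 and 4.03 in LcPOU5F3 clones 1 and 2. Fgf4, the growth factor that embryonic stem cells secrete, stood at 5.01 and 4.87 against 3.05 and 1.49. Tcl1, a co-activator of AKT and the steepest faller among genes measured on all 4 arrays, stood at 4.77 and 4.13 against -0.59 and -2.84. In each of these the LcPOU5F3 clones lay below both mOct4 clones without overlap, and clone 2 lay lowest. Dnmt3l, the catalytically inactive partner of the de novo DNA methyltransferases, fell by 4.32 on the log2 scale (SE 0.72, limma adjusted p = 0.018), and Eras, an embryonic RAS protein, fell by 4.04. Klf2 fell by 2.85 and Prdm14, which restrains FGF signalling and DNA methylation, fell by 2.94. Nanog fell by 2.04 on its brighter probe, while its other probe gave -0.09. Klf5 (-0.07), Tet2 (-0.67), Tbx3 (-1.08), Dppa5a (-0.61) and Jam2 (-2.10) did not pass, and Dppa3 rose by 2.93.

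Among 20 general pluripotency genes 12 fell and none rose, with a median of -1.34. Foxd3, a forkhead repressor needed for self-renewal, fell by 3.64, Tdgf1, a co-receptor for Nodal, by 2.89 and Mybl2, a cell-cycle MYB factor, by 1.84, with -2.69 on its other probe. Lin28a (-0.65), Lin28b (0.02), Sall4 (-0.43) and Trim71 (-0.19, and -0.78 on its other probe) did not pass the test. Epiblast genes moved in both directions: of 14 kept formative and primed genes 5 fell, among them Otx2, and 2 rose. The risers were Cd24a, a surface glycoprotein, and Cldn6, a claudin of early embryonic epithelium at -2.46 and -2.52 against 3.10 and 2.77. The primed markers Fgf5, Zic5 and Wnt8a did not pass the filter, with Fgf5 measured on 2 of the 4 arrays and the others on none.

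Signalling genes of pluripotent cells had calls in both directions, as did all genes (11.8% higher and 11.7% lower). Of 14 kept Nodal and activin genes 3 rose and 2 fell (median -0.03). Inhbb, which encodes an activin subunit, stood at 3.34 and 3.33 with mOct4 and at -2.22 and -2.65 with LcPOU5F3, where clone 1 was not well above background (log2 difference -5.76, SE 0.20, limma adjusted p = 0.00252). The activin-binding antagonist Fst rose by 3.26 and the Nodal antagonist Lefty2 by 3.18, whereas Nodal itself differed by -0.18 and did not pass. Of 18 FGF and ERK feedback genes 5 fell and 3 rose: the ERK-induced ETS factors Etv4 and Etv5 fell by 1.46 and 1.22, the feedback inhibitor Spry4 fell by 2.43, and the immediate early gene Egr1 rose by 1.76. Of 17 kept genes of the LIF pathway 3 rose and 5 fell (median -0.36). The receptor chains Lifr (-0.95) and Il6st (-0.02), Stat3 (0.39, and -0.44 on its other probe) and Socs3 (-0.38) did not pass. Osmr, the receptor for oncostatin M, rose at least 6.30-fold.

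Hedgehog genes went both ways, with 3 of 13 kept lower and 2 higher. The target and effector Gli1 stood at 4.03 and 3.92 in the mOct4 clones and at 0.07 and -2.56 in the LcPOU5F3 clones, far below and without overlap. Gli2, its upstream activator, fell by 2.65 and the receptor Ptch1 by 2.21, while Gli3, mostly a repressor, rose by 2.37 and the co-receptor Cdon by 1.23. The ligands Shh and Ihh were measured on none of the 4 arrays.

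Germ line and chromatin genes had calls in both directions, where 11.8% of all genes were called higher and 11.7% lower. Of 23 kept germ cell genes 7 fell and 2 rose, with a median of -0.50. Stra8, a gatekeeper of meiosis, stood at 3.34 and 3.72 against -3.12 and -3.88, with 1 of the LcPOU5F3 arrays measured. Sycp3, a part of the synaptonemal complex, fell by 4.18 and Smc1b, a meiotic cohesin subunit, by at least 5.78-fold, while Tex15 rose by 1.87. Tet1, which oxidises methylcytosine, stood at 5.11 and 5.21 against 3.32 and 2.37. The methyltransferases Dnmt1 (-0.29), Dnmt3a (0.37) and Dnmt3b (0.15) did not pass. Among polycomb genes, the core subunit Eed fell by 0.80 and the PRC2 partners Jarid2 and Mtf2 by 1.29 and 1.43, whereas the PRC1 chromobox gene Cbx8 rose at least 5.07-fold.

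**Figure D1:**
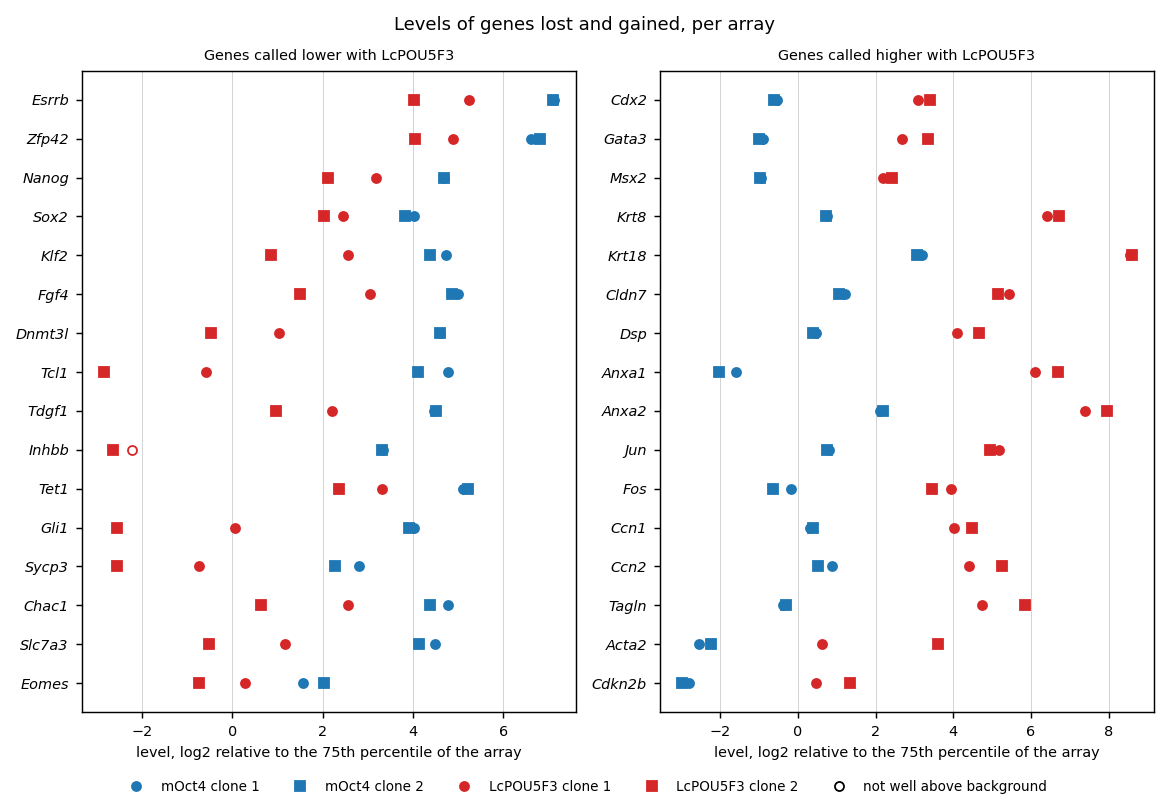
Levels of 16 genes called lower (left) and 16 called higher (right) with LcPOU5F3, on a log2 scale relative to each array's 75th percentile, with 1 point per clone and open points for spots not well above background. In every gene shown the LcPOU5F3 clones (red) lie apart from the mOct4 clones (blue), and in all 16 fallers clone 2 lies farthest from them.

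The amino acid response and serine pathway fell as a group, in 12 of 19 kept genes with none higher and a median of -1.36. Atf4, the factor that drives this programme, fell by 0.91, from 7.55 and 7.55 to 6.64 and 6.64. Its target Chac1, which degrades glutathione, stood at 4.77 and 4.37 against 2.56 and 0.63, and Slc7a3, a transporter of cationic amino acids, at 4.48 and 4.15 against 1.16 and -0.52. Both LcPOU5F3 clones lay below the mOct4 pair. The mitochondrial folate enzyme Mthfd2 fell by 1.93, the pseudokinase Trib3 by 2.42 and the serine enzymes Psph and Psat1 by 1.63 and 1.35. Phgdh, which opens serine synthesis, differed by -0.19 and Ddit3, also called CHOP, by -0.10, and neither passed.

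Growth machinery fell by less. Of 28 DNA replication genes 10 fell and none rose (median -0.54), of 24 ribosome genes 8 fell and none rose (median -0.55), and of 25 oxidative phosphorylation genes 7 fell and none rose (median -0.43). The licensing factor Cdt1 fell by 1.11, the polymerase gene Pola1 by 1.13, the pseudouridine synthase Dkc1 by 1.18 and Cox5a by 0.87. With arrays centred on their median, none of the DNA replication genes, none of the ribosome genes and 1 oxidative phosphorylation gene passed, although those medians kept their sign. Of 24 glycolysis and hypoxia genes 6 fell and 3 rose. Pfkp, a phosphofructokinase, fell by 2.84 on its brighter probe, while its other probe gave -0.57. Cholesterol and fatty acid synthesis had 1 call in 25 genes, the desaturase Fads1 (-1.58).

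Trophectoderm transcription factors rose, in 12 of 21 kept genes with 1 lower and a median of 1.72. Cdx2, the caudal-type factor of that lineage, stood at -0.55 and -0.61 with mOct4 and at 3.10 and 3.40 with LcPOU5F3 (log2 difference 3.83, SE 0.78, limma adjusted p = 0.0275). Gata3 stood at -0.89 and -1.01 against 2.68 and 3.35, and Msx2, a homeobox target of BMP, at -0.95 and -0.98 against 2.19 and 2.41. Tfap2a rose by 3.42, Gata2 by 3.42, Id2 by 3.89 and Ascl2, needed for the spongiotrophoblast, by 2.88. Tead4, which acts upstream of Cdx2, rose by 1.53.

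The rise did not cover the whole lineage. Eomes, a T-box factor of trophoblast stem cells, fell from 1.57 and 2.02 to 0.28 and -0.73 (log2 difference -2.02), and its other probe gave -3.14. Elf5, a gatekeeper of trophoblast stem cells, was measured on none of the 4 arrays. Tfap2c (0.05), Ets2 (0.14), Elf3 (0.86) and Hand1 (-0.02) did not pass. For Hand1 the LcPOU5F3 clones lay on either side of the mOct4 clones, at 1.92 in clone 1 and -0.025 in clone 2 against 0.95 and 0.98. Of 25 kept trophectoderm and placental effector genes 9 rose and 1, the water channel Aqp3, fell (median 0.86). The placental gene Plac1 rose at least 9.95-fold. Tpbpa, Ctsq, Cts7 and Psg29, expressed in the mature placenta, were measured on none of the 4 arrays.

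Epithelial genes rose together. Krt8, a simple epithelial keratin, stood at 0.76 and 0.73 against 6.42 and 6.71 (log2 difference 5.83, SE 0.18, limma adjusted p = 0.00252), and its partner Krt18 at 3.18 and 3.08 against 8.56 and 8.60. The LcPOU5F3 clones lay far above the mOct4 clones and close to each other. Of 19 kept intermediate filament genes 9 rose and none fell, and the mesenchymal filament Vim (-0.31) and the epidermal keratins Krt5 (0.22) and Krt17 (-1.45) did not pass. Without LcPOU5F3 clone 1 the Vim difference became 0.54.

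Desmosomes, which anchor keratins at cell junctions, gained 7 of 10 kept genes and lost Pkp4 (median 1.95). Dsp stood at 0.45 and 0.38 against 4.10 and 4.66, and Dsc2 rose by 4.37. Tight junction genes rose in 13 of 21 with none lower (median 1.83). They included Cldn7 (4.16), Cldn4 (2.84), the tricellular protein Marveld2 (2.70) and cingulin, Cgn (2.76). Of 19 kept adhesion and epithelial-mesenchymal regulators 8 rose and none fell. The splicing factor Esrp2 rose by 2.24 and both Cdh1 (2.01) and Cdh2 (2.44) rose, while Snai1 (0.20), Snai2 (0.22) and Zeb1 (-0.97) did not pass. Serine proteases and their inhibitors rose in 11 of 17 kept genes with none lower (median 1.78). They included Prss8 (2.51), St14 (1.78), Spint1 (1.51) and the urokinase receptor Plaur (4.16). Of the 17, 12 were measured on all 4 arrays and 16 in both LcPOU5F3 clones. Some, such as Prss23 and Tmprss2, were measured in neither mOct4 clone, so a fall could hardly show in them.

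Contractile genes rose in 22 of 26 kept members, with none lower and a median of 2.01. Tagln, an actin-binding protein of smooth muscle, stood at -0.39 and -0.30 in the mOct4 clones and at 4.74 and 5.85 in the LcPOU5F3 clones. Csrp1 stood at 3.94 and 3.91 against 7.17 and 7.85, Zyx at 1.98 and 1.94 against 5.13 and 6.49, and Myl9 at -1.28 and -1.27 against 2.95 and 4.33. Clone 2 exceeded clone 1 in each, and both exceeded the mOct4 pair. The muscle actins Acta1 and Actg2 rose by 5.66 and 5.39. Tpm1 rose by 1.03, with its other probes between 0.20 and 3.57, and Actn4 (0.26), Cnn3 (-0.24) and Pdlim5 (0.96) did not pass.

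Genes of the Hippo pathway, which links cell shape to YAP, TAZ and TEAD factors, rose in 13 of 21 kept members with 1 lower and a median of 1.94. Ccn1, a secreted matricellular target, stood at 0.31 and 0.39 against 4.02 and 4.49, and Ccn2 at 0.86 and 0.50 against 4.41 and 5.25. Ankrd1 rose at least 3.82-fold and the receptor Axl at least 10.2-fold. The pathway's own parts moved too: Amot rose by 4.73, Wwtr1, which encodes TAZ, by 2.56, Tead3 by 2.51 and the kinase Lats2 by 1.65. Yap1 differed by 0.10, Tead1 by 0.82, Tead2 by -0.70 and the upstream brake Nf2 by -0.90 (-2.27 on its other probe), and none of these passed.

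Immediate early genes rose in 14 of 20 kept members with none lower (median 1.75). Jun, a subunit of AP-1, stood at 0.81 and 0.75 against 5.18 and 4.94, and Fos at -0.19 and -0.66 against 3.95 and 3.46. Here clone 1 was the higher of the LcPOU5F3 pair. Fosl2 rose by 4.75, Atf3 by 2.76 and Srf, the partner of actin-sensing cofactors, by 1.34, while Jund (0.65) and Fosl1 (0.34) did not pass. Annexins and their S100 partners, which bind membranes in the presence of calcium, rose in 10 of 17 with none lower (median 2.04). Anxa1 stood at -1.60 and -2.05 against 6.11 and 6.71, the steepest rise among genes measured on all 4 arrays (8.23, SE 0.61, limma adjusted p = 0.00508). Anxa2 rose by 5.53, S100a6 by 4.85 and Anxa3 by 4.61.

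Of 31 kept matrix genes 13 rose and 1 fell. The Fraser complex gene Fras1 rose at least 35.4-fold, thrombospondin Thbs1 by 6.68 and the laminin chain Lamb1 by 2.32. Nidogen Nid2 fell by 1.14, and fibronectin Fn1 (-0.22), Col1a1 (-0.80) and Lama1 (-0.84) did not pass. Among 19 kept integrin and focal adhesion genes 11 rose and none fell, with the hemidesmosome integrin Itgb4 at 2.83, Itgb1 at 2.30 and the adaptor Parva at 3.35.

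Of 19 kept genes for G1 cyclins, CDK inhibitors and Myc 5 rose and 2 fell (median 0.23). Cdkn2b, which encodes the CDK inhibitor p15, stood at -2.81 and -2.99 against 0.45 and 1.33, and Cdkn2a, which encodes p16 and ARF, at 2.06 and 1.23 against 4.05 and 4.33. The inhibitors Cdkn1a and Cdkn1c rose by 2.64 and 1.91, while Cdk4 fell by 0.54 and Cdkn1b (-0.16), Myc (0.19) and Mycn (-0.09) did not pass. Of 23 p53 targets 12 rose and 2 fell (median 1.12). Mdm2 rose by 1.49, Ccng1 by 2.14 and the death receptor Fas at least 18.2-fold, whereas Gdf15, which the amino acid response also induces, fell by 2.40 and Bax (-0.09) did not pass. Of 17 kept BCL2 family genes 4 rose and 1 fell. The death gene Hrk fell at least 9.92-fold, while the death genes Bok, Bbc3 and Bad rose by 2.06, 1.12 and 0.75 and the survival gene Bcl2l1 by 1.54.

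Developmental signalling lists held calls in both directions, beside 11.8% of all genes called higher and 11.7% lower. In the Wnt family the ligands Wnt9a (4.40), Wnt4 (4.32), Wnt7a (at least 5.45-fold) and Wnt3 (at least 13.8-fold) rose, as did the inhibitor Dkk1 (at least 11.6-fold), among 31 kept genes with 8 higher and 1 lower. The common Wnt target Axin2 (0.50) did not pass. Of 16 kept BMP and Id genes 8 rose and 2 fell. Id1, Id2 and Id3 rose by 2.24, 3.89 and 1.05, and Bmp8b by 3.75, while Bmp4 (-0.24) did not pass and the feedback inhibitor Smad6 fell by 1.55. Of 15 kept TGF-beta genes 8 rose and 1 fell. The ligand Tgfb2 rose by 4.04, the receptor Tgfbr3 by 3.80 and Tgfbr2 by 2.40, with 1.04 on its other probe. Vegfc, a lymphatic growth factor, stood at 2.39 and 2.25 against -2.02 and -1.82, whereas Flt1, a VEGF receptor, rose at least 38.2-fold. Of 14 kept Notch genes 1 rose and 2 fell, which is near the shares over all genes. Notch4 fell by 2.97 and Notch3 rose by 2.78. Of 28 kept guidance genes 9 rose and 3 fell. Efna5 (4.89), Efnb1 (3.30) and Efnb2 (3.47, and 0.82 on its other probe) rose, and Unc5a fell at least 4.19-fold.

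Hox and imprinted genes showed scattered calls. Of 39 listed Hox genes 18 were kept, of which 6 rose and none fell. Some, such as Hoxc9 and Hoxd8, were not measured in either mOct4 clone, so a fall could hardly show in them. Hoxc6 stood at -3.53 and -3.21 against 0.45 and 0.99, and Hoxd8 rose at least 3.61-fold, while Hoxc4 (0.10) and Hoxb9 (0.15) did not pass. Of 23 kept imprinted genes 7 rose and 3 fell. Nnat, Peg3 and Gnas rose by 3.10, 2.50 (1.83 on its other probe) and 1.58, Snrpn and Mkrn3 fell by 1.28 and 0.89, and Magel2 fell at least 2.10-fold. In the list of interferon response and antigen presentation 8 of 16 kept genes rose with none lower, including the interferon-induced Ifitm3 (3.02) and Isg15 (1.88), B2m (1.43), H2-K1 (1.68) and the peptide transporter Tap1 (3.00).

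Markers of other lineages differed by list. Of 23 listed primitive and visceral endoderm genes 14 were kept, with 4 higher and 1 lower, and the summed linear level of those kept, relative to the 75th percentile, was 226.4 and 210.8 in the mOct4 clones and 214.4 and 260.8 in the LcPOU5F3 clones. The median of the endoderm list was 0.64. Dab2 rose at least 20.5-fold, Fst by 3.26 and Foxq1 by 1.64, while Amn fell by 1.56. Dab2 is also counted in the trophectoderm and placental effector list, and Fst in the Nodal and activin list. Gata4 (0.52) and Sox17 (0.33) did not pass, and Gata6 was measured on 2 of the 4 arrays. Of 12 kept primitive streak and mesoderm genes 1 rose and 1 fell, near the shares over all genes (11.8% and 11.7%). These were Wnt3 and Eomes, already named under the Wnt and trophectoderm lists. The mesoderm factors T and Mixl1 were measured on none. Of 15 kept neural genes 7 fell and 2 rose (median -0.78). Tubb3 fell by 3.54, Stmn3 at least 29.0-fold and Ncam1 by 1.81, while Sox1 (0.02) did not pass. The 2 risers were Pax3, by 3.17 (3.86 on its other probe), and Nefl, by 1.59. Of 8 kept fibroblast genes Dcn (at least 10.1-fold) and Thy1 (1.29) rose, Pdgfrb fell by 0.63, and Postn, Lum and Prrx1 were measured on none. Of 8 kept blood and endothelial genes 3 fell and 1 rose (median -0.49), where Cd34 fell at least 4.07-fold and Runx1 rose by 1.27. The part of another cell type in these results was not tested.

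**Figure D2:**
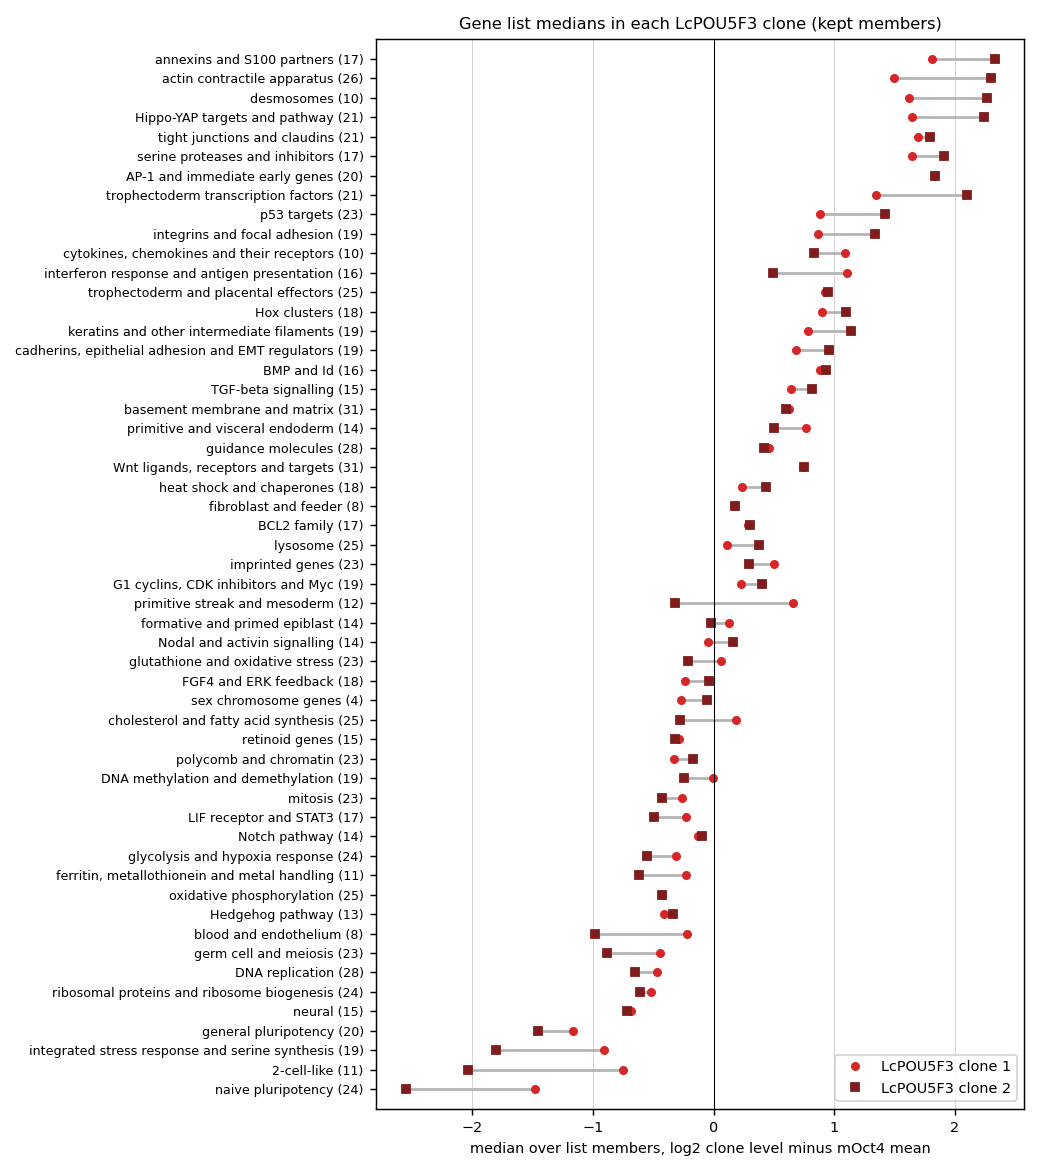
Median over the kept members of each of 54 gene lists, as the log2 level of LcPOU5F3 clone 1 (circle) or clone 2 (square) minus the mOct4 mean, with the number of kept members in parentheses. The naive list lies at -1.48 in clone 1 and -2.55 in clone 2, and the annexin list at 1.81 and 2.33.

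The LcPOU5F3 clones stood farther apart than the mOct4 clones. With 1 array per clone this difference has no test and no replicate check. Counting genes measured in at least 1 LcPOU5F3 clone and setting unmeasured spots to the array's floor, 1786 of 13822 (12.9%) differed by at least 2-fold, 1460 with clone 1 higher (10.6%) and 326 with clone 2 higher (2.36%). The mOct4 clones differed by that much in 0.794% of genes. Among the 12264 genes measured on all 4 arrays the shares were 9.78% and 0.342%. The floor of clone 1 moves with this count: over genes whose mOct4 mean lay below -3 the median of clone 1 minus clone 2 was 0.79, and over genes at 2 or above it was 0.00. Scaling moves it too, with 574 genes under normexp background correction, 942 under quantile normalization and 4486 with arrays centred on their median. Restricted to 7761 genes with both group means at 0 or above, clone 1 was at least 2-fold higher in 135 and clone 2 in 90.

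Clone 2 lay farther from mOct4 in both directions. Among the 1724 genes called higher, clone 2 was the farther clone in 1391, with medians of 1.28 in clone 1 and 1.57 in clone 2. Among the 1712 called lower, clone 2 was the farther clone in 1366, with medians of -1.04 and -1.30. Of those measured on all 4 arrays, clone 2 was farther in 1287 of 1576 risers and 1022 of 1268 fallers. Both counts used the clones that set the calls, so they describe the pair. With arrays centred on their median, which shifts clone 1 minus clone 2 by a median of -0.82 over all genes, clone 2 was farther in 1565 of these risers and 171 of these fallers.

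Programmes differed in how far the clones stood apart. In the naive list 10 of 24 genes were at least 2-fold higher in clone 1 and none in clone 2. Nanog stood at 3.19 and 2.12 in LcPOU5F3 clones 1 and 2, Klf2 at 2.56 and 0.86, and Prdm14 at 0.95 and -0.85. The amino acid response showed the same order, with medians of -0.91 in clone 1 and -1.80 in clone 2. In contrast, 9 of 26 contractile genes were at least 2-fold higher in clone 2 and none in clone 1. Among the 9, Zyx, Cald1 and Actg2 lie on chromosome 6, which as a whole stood higher in clone 2, as described below. The clones met in other programmes: immediate early genes had medians of 1.84 and 1.83, and Krt18, Cdx2, Jun and Msx2 lay between 0.04 and 0.30 apart on the log2 scale.

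Genes with wide gaps in favour of clone 1 differed in where clone 1 stood against the mOct4 level. Zscan4f, of a family expressed in bursts in embryonic stem cells and at the 2-cell stage, stood at 3.26 and 3.11 in the mOct4 clones, 1.95 in clone 1 and -1.88 in clone 2. Its relative Zscan4c stood at 2.72, 2.51, 1.51 and -2.12 in that order, and near-identical copies may share these probes. Tex19.1, which guards germ cells and placenta against retrotransposons, stood at 4.14, 4.31, 4.25 and 1.46. Oas1a, an interferon-inducible synthetase, stood at 2.98, 3.19, 2.44 and -1.15, and Gpat2, an acyltransferase of germ cells, at 0.70, 1.03, 0.78 and -2.75. Clone 1 lay within the mOct4 range for Tex19.1 and Gpat2 and below it for Zscan4f, Zscan4c and Oas1a, and clone 2 lay far below clone 1 in all 5. Auh, an RNA-binding hydratase of mitochondria, had the widest gap among genes with a proper symbol, at 0.88 in clone 1 and -3.23 in clone 2 against -0.48 and -0.97 in the mOct4 clones. Igf2, an imprinted growth factor, was the converse kind: it stood at 2.90 in clone 1 and -0.45 in clone 2, against -1.30 and -1.70.

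Other genes were far higher in clone 2 than in clone 1. Akr1b8, an aldo-keto reductase, stood at 2.15 and 1.83 in the mOct4 clones, 1.70 in clone 1 and 5.35 in clone 2. Cnn1, calponin of smooth muscle, stood at -1.14, -1.53, -0.12 and 2.53. Acta2, the smooth muscle actin, lay above both mOct4 clones in each but reached 0.62 in clone 1 and 3.61 in clone 2. Prl3d1, a placental lactogen of trophoblast giant cells, stood at -2.07, -1.82, -2.07 and -0.10. Ccnd2, a D-type cyclin, reached -0.63 in clone 1 and 2.64 in clone 2, beside -0.84 and -2.42 in the mOct4 clones, and did not pass the group test. The filament gene Vim stood at 3.44 in clone 1 and 5.12 in clone 2, on either side of the mOct4 clones at 4.43 and 4.73.

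**Figure D3:**
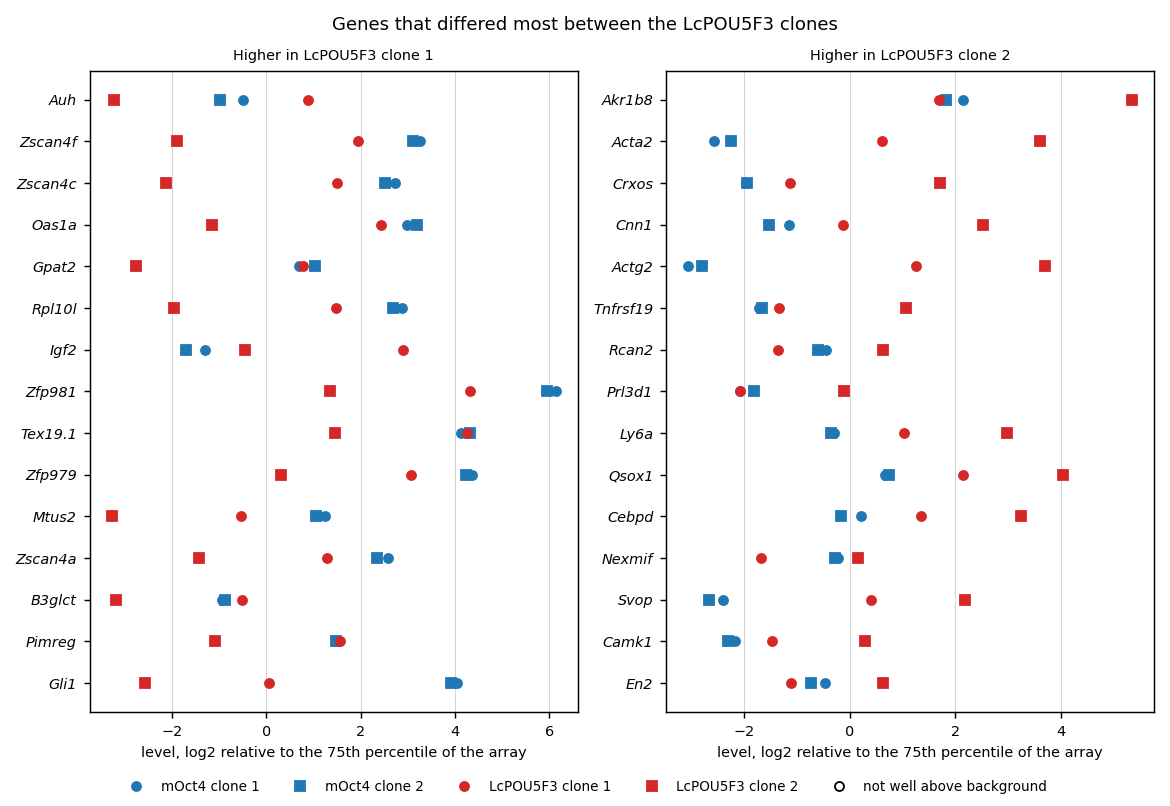
Levels in each clone of the 15 genes with the largest excess in LcPOU5F3 clone 1 (left) and in clone 2 (right), on a log2 scale relative to each array's 75th percentile, among genes measured on all 4 arrays whose mOct4 clones lay within 0.5 of each other. Predicted genes and clone names were left out. The genes were chosen for this gap, and the widest shown are Auh (4.12) and Akr1b8 (-3.65, as clone 1 minus clone 2).

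Chromosome 6 stood out in the clone comparison. Over its 590 genes measured on all 4 arrays the median of clone 1 minus clone 2 was -0.47, and 23.1% of the genes were higher in clone 1. The other autosomes and the X chromosome lay between -0.07 (chromosome 12) and 0.15 (chromosome 7), and the mOct4 clones differed on chromosome 6 by a median of 0.01. Against the mOct4 mean, chromosome 6 lay at 0.08 in clone 1 and 0.40 in clone 2, where all genes lay at 0.00 and -0.10. Split in RefSeq gene order into 10 blocks of 59 genes, each block was higher in clone 2, with medians from -0.60 to -0.24. The gap to other chromosomes was of similar size under normexp (-0.49 against -0.01) and quantile normalization (-0.47 against 0.03). It was smaller over noncoding probes named only by genome coordinates and measured on all 4 arrays. There chromosome 6 had the lowest median, 0.325 over 224 probes. The X chromosome had 0.375, and the other autosomes lay from 0.393 (chromosome 14) to 0.697 (chromosome 15).

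Several genes named here lie on chromosome 6, among them Tead4, Gata2, Zyx, Cald1, Actg2, Ccnd2, Akr1b8, Nanog, Dppa3 and the Hoxa cluster. Zyx exceeded the mOct4 mean by 3.17 in clone 1 and 4.53 in clone 2, and Tead4 by 0.95 and 2.10. Nanog went the other way, at -1.50 and -2.57. Of the 263 genes at least 2-fold higher in clone 2 and measured on all 4 arrays, 73 lie on chromosome 6, against 42 of the 936 higher in clone 1. Without the 705 tested genes of chromosome 6, limma called 3389 of 13890 genes. What raised the chromosome was not tested, and gene copy number was not analysed here.

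**Figure D4:**
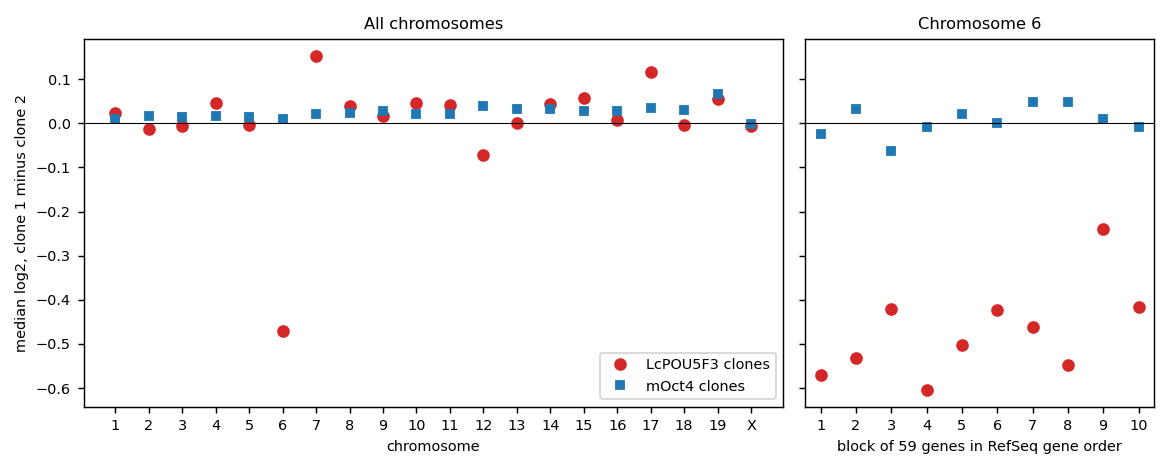
Median log2 difference, clone 1 minus clone 2, over genes measured on all 4 arrays, for each chromosome (left) and for 10 blocks of 59 chromosome 6 genes in RefSeq order (right), in the LcPOU5F3 clones (red circles) and the mOct4 clones (blue squares). Chromosome 6 lies at -0.47 in the LcPOU5F3 pair and near 0 in the mOct4 pair.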

How the data were processed

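The 6 samples of the series were hybridised to 1-colour Agilent arrays of 55681 non-control probes. The deposited processed intensity is linear and background-subtracted, made by the authors with Agilent Feature Extraction per the file headers. The deposited series matrix holds values within 0.6% of these for 100% of spots. Here, log2 intensity minus each array's 75th percentile was used. Control spots and outliers were dropped, and replicate spots averaged. Probes stayed in where 1 or more groups had both arrays well above background. A gene measured in only 1 of the groups compared passed through that group, so a change the other way could hardly show. RefSeq accessions (GRCm38.p6) named 27656 probes, 28025 stayed unnamed, and the brightest kept probe stood for a gene. Limma 3.58.1 (R 4.3.3, lmFit and eBayes) fitted 3 groups over 6 arrays with Benjamini-Hochberg adjustment, and was tested on simulated data. "At least" folds set a group's mean against the other group's floor.

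Members, gene lists, tests and the naming rule were chosen with earlier results of these data known. The rule took the 15 largest rises and falls, the 8 largest bounded ones, list members by p or clone gap, the 15 widest clone gaps each way, and fixed markers. Genes picked outside it from the lists, to show what did not pass, were chosen after their values were seen. Normexp used the median spot intensity, with an offset of 50. Alternatives without chromosome 6, with a common floor and with group variance weights were added after seeing the data. The number of arrays limits the precision.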

Additional observations from a re-analysis of the deposited data

How the results depend on the processing

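The count of calls (3436, 1724 higher and 1712 lower) fell to 2202 (917 lower) with only the 4 arrays, to 1544 (985 and 559) with no filter on dim probes, and to 1065 lower with median centring. It was 46 (39 and 7) with the slide as a block, which equals leaving out mOct4 clone 2. Leaving out 1 clone gave 36 to 5070 calls, 31 to 2293 higher and 5 to 2777 lower. An adjusted p under 0.01 called 526 (380 and 146), under 0.10 called 5325 (2832 lower), and a 2-fold minimum left 1036 lower. The 1786 genes at least 2-fold apart between the LcPOU5F3 clones became 574 with normexp, 942 with quantile normalization, 4486 with median centring, 858 with a common floor and 144 at 4-fold. The Vim difference (-0.305) reversed to 0.535 without LcPOU5F3 clone 1 and was -1.144 without clone 2. All 29 list medians of at least 0.5 in size kept their sign under normexp, quantile, median centring and the common floor, and 4 of 25 smaller ones changed it. Where no cause is given, the cause was not tested.

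With the clone number as a replicate block over the 4 arrays limma called 0 genes, 0 higher and 0 lower, with 4398 at an unadjusted p under 0.05. The clone number comes from the sample titles, and whether same-numbered clones shared any step is not known from it. Deviations of same-numbered clones correlated at -0.10 over genes, which cannot decide this with so few clones per construct.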
